A study of Canis lupus familiaris with 6 samples.

Results

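The let-7 family was measured as the 7 features whose gene name on the array is cfa-let-7a, cfa-let-7b, cfa-let-7c, cfa-let-7e, cfa-let-7f, cfa-let-7g or cfa-let-7j, out of 289 dog miRNAs on the array. The members were chosen by name, by a rule that used none of their signals, though earlier results of these data were known. The arrays were hybridised with total RNA of the canine mammary cancer lines CMT-U27, CMT-U309 and P114, each stained for stem cell antigen 1 and sorted by flow cytometry into a Sca1+ fraction, which the labels call cancer stem cells, and a Sca1- fraction, which they call control. This gave 6 arrays on 1 slide, 3 arrays in each of 2 fractions and 1 array per fraction and line. All lines were kept in RPMI medium with fetal bovine serum, antibiotic and antimycotic. The descriptions of both P114 samples speak of growth with macrophages, and those of the other 4 samples of mono-culture, while titles and sources say nothing of it. Each line is 1 established culture and nothing in the labels states separate cultures, so a p-value here reflects the spread among these samples alone, which may be technical.

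let-7 miRNAs are short RNAs that guide Argonaute proteins to matching sites in messenger RNAs, and the seed near the 5′ end, shared by the family, sets most of that match. Their precursors are bound by LIN28, which blocks maturation in embryonic and stem cells, so mature let-7 is usually low in undifferentiated cells and abundant in differentiated tissue. Known let-7 targets include RAS genes and HMGA2, and low let-7 has been described in breast tumour-initiating cells. The study compared Sca1+ with Sca1- cells of each line.

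Because 5 of the members' stretches differ from that of let-7a at only 1 or 2 bases, the sequences that their probes read are shown first. Each line gives the reverse complement of the longer of the 2 probes of a member, 5′ to 3′ in DNA letters, and capitals mark bases that differ from the let-7a stretch.
cfa-let-7a: aggtagtaggttgtatagtt
cfa-let-7b: ggtagtaggttgtGtGgtt
cfa-let-7c: ggtagtaggttgtatGgtt
cfa-let-7e: ggtagGaggttgtatagtt
cfa-let-7f: gaggtagtagAttgtatagtt
cfa-let-7g: gaggtagtagTttgtaCagtt
cfa-miR-98: gaggtagtaAgttgtatTgtt
miR-98, a let-7 relative under another name, is shown because it is the closest feature on the array outside the 7 names. Counted from the 5′ end of the probe, let-7c differs from let-7a by T4C, let-7e by A14C and let-7f by C11T, each a single substitution. let-7b differs by T4C and T6C and let-7g by A5G and C11A. let-7b and let-7c differ from each other by 1 base. The let-7j stretch, gtagtagagtgcagtagtt, differs from let-7a at 11 of 19 bases when compared from the 5′ end of the probe without gaps. It shares with let-7a an unbroken run of 7, which lies out of register in that comparison. The count of 11 may thus overstate the difference. The letters GGTAGNA, which begin inside the seed and were searched on the target strand only, occurred in 10 of 289 miRNAs on the array (3.46%). A match here describes the probes and says nothing of what bound to them.

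The probe mappings in the files place the family at 8 sites of the dog genome, build canFam2. let-7a maps to chr5:15057804-15057823 (plus strand) and to chr10:23089109-23089128 (minus strand), so its signal cannot be divided between these genes. let-7b lies at chr10:23088269-23088286, 822 bases from the second let-7a site on the same strand. let-7c lies at chr31:16269073-16269090, 723 bases from miR-99a. let-7e lies at chr1:108280861-108280878, 170 bases from miR-99b and 449 bases from miR-125a on the same strand. let-7f maps to chr1:100972838-100972857, let-7g to chr20:40496655-40496674 and let-7j to chrX:74631783-74631800. In RefSeq's later dog assembly all 7 members have a named gene. There, MIRLET7G overlaps the protein-coding gene WDR82, one let-7a gene overlaps BLID, and MIRLET7C overlaps 2 long non-coding RNAs. Exon and intron positions in canFam2 were not used here. let-7d has a RefSeq gene and was not analysed here.

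The arrays differed widely in brightness. On 3 of them, called B1, B2 and B3, 89 to 111 miRNAs were detected and the summed signal was 69282 to 70794, while on the other 3, D1, D2 and D3, 9 to 39 miRNAs were detected and the sum was 319.5 to 3228. Each column of the deposited value table matched the signals of exactly 1 scanner file, but the table gave most arrays another sample name than the file record did. By the file record, B1 is Sca1+ CMT-U309, B2 is Sca1- CMT-U309, B3 is Sca1- P114, D1 is Sca1+ CMT-U27, D2 is Sca1- CMT-U27 and D3 is Sca1+ P114. The table named B1 as Sca1+ P114, B2 as Sca1- CMT-U27, D2 as Sca1+ CMT-U309 and D3 as Sca1- CMT-U309. B3 and D1 had the same name in both, and B1, B2, B3 and D1 kept the same fraction in both. Groups below follow the file record unless the table is named, and each comparison of fractions is also given for the 4 arrays of undisputed fraction. Of 7 epithelial miRNAs (the miR-200 family, miR-203 and miR-205), 5 were detected on B1, with a summed signal of 5129. On the other arrays at most 1 was detected, and the sum was 0 to 28.9. Of 5 leukocyte miRNAs, 3 were detected on B1 (summed signal 948), 2 each on B2 and B3, and 1 on each dim array. miR-155, miR-146a and miR-223 were the ones seen. Of 2 erythroid miRNAs on the array, miR-451 was detected on B2 (signal 18.1) and D2 (39.4) and not on B1. The endothelial and muscle miRNAs listed were detected on no array.

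let-7a, the member with the highest signal on 4 of 6 arrays, had a total gene signal of 4537, 3025 and 3389 on the bright arrays B1, B2 and B3, and of 126, 53.1 and 28.5 on the dim arrays D1, D2 and D3. The total gene signal is the scanner software's estimate per miRNA over all its spots, on a linear intensity scale. let-7a ranked 2nd or 3rd of all miRNAs on the bright arrays and 6th on each dim one. let-7f, which differs from it by 1 base, read 3452, 2222 and 2207 on B1, B2 and B3, and 96.5, 23.3 and 12.6 on D1, D2 and D3. The signals of both were highest on B1, and every bright array exceeded every dim one.

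let-7b, the neighbour of let-7a on chromosome 10, read 2406, 1355 and 1550 on the bright arrays in that order, and 29.7, 55.0 and 28.7 on the dim ones. Unlike let-7a, it was higher on D2 than on D1. let-7c, from the chromosome 31 cluster, read 999, 493 and 487 on B1, B2 and B3, 11.9 on D1 and 16.3 on D2. D3 gave no detected let-7c signal. let-7g, from the gene that overlaps WDR82, read 696, 402 and 361 on the bright arrays and 35.1 on D1, and was not detected on D2 or D3.

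let-7e stood apart among the bright arrays. It read 50.7 on B1, 206 on B2 and 292 on B3 and was detected on no dim array, so B1 was the lowest of the bright arrays for let-7e and the highest for each of the other 5 detected members. let-7j was detected on no array. Each member was read by 2 probes of 20 spots. Over 36 probe readings on the bright arrays, the coefficient of variation between spots was 2.59% to 24.3% (median 5.86%), and no spot was saturated.

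**Figure D1:**
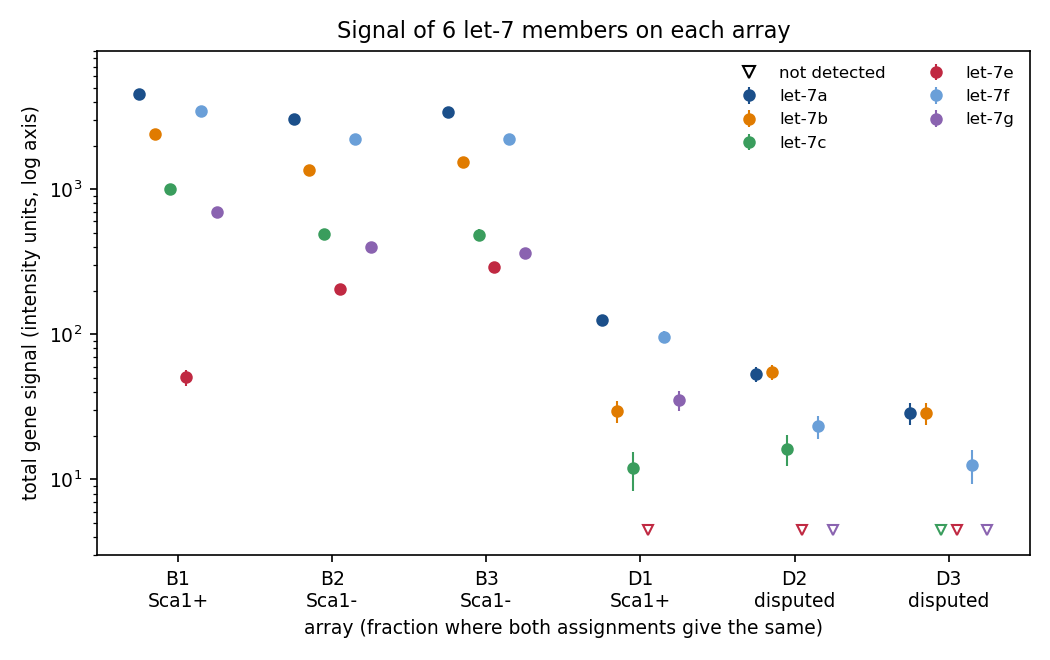
Total gene signal (linear intensity drawn on a log axis) of each let-7 member on each of the 6 arrays, with open marks where a member was not detected. The bright arrays lie above the dim ones for every detected member, and let-7e is lowest among the bright arrays on B1, at 50.7.

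The family supplied 17.5%, 10.9% and 11.8% of all signal of B1, B2 and B3, and 9.28%, 11.6% and 21.9% of that of D1, D2 and D3. With only 9 miRNAs detected on D3, its share rests on few features. Within the family, brightness that scales all members alike does not move the share of a paralogue, as long as they are well above background. On every dim array at least let-7e, which the bright arrays detected, fell below detection. The part of brightness in the shares was not tested. Probes of different members may bind with different strength, so shares of different members are shares of signal and not of molecules.

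let-7a held 37.4%, 39.3% and 40.9% of the family signal of B1, B2 and B3, and 42.2%, 35.9% and 40.8% of that of D1, D2 and D3. Its mean over the bright arrays was 39.2% ± 1.77 (SD, n = 3), and all dim arrays lay within 5 percentage points of that. let-7f held 28.0% ± 1.18 (SD, n = 3) on the bright arrays, 32.2% on D1, 15.8% on D2 and 18.1% on D3. let-7b held 18.7% ± 1.12 (SD, n = 3) on the bright arrays, 9.92% on D1, 37.3% on D2 and 41.1% on D3. On D2 and D3, the arrays whose fraction is disputed, the let-7b share was thus above every bright array and the let-7f share below every one. Members not detected on an array counted as 0 in the shares. On D2 and D3 these included let-7e and let-7g, and on D3 also let-7c, whose longer probe had a mean signal of 6.67 there. The mean signal of the longer let-7b probe was 12.6 on D1, with 60% of its spots well above background, and 12.8 on D3, with 73.7% of spots. For the longer let-7f probe it was 17.6 on D2, with 95% of spots, and 9.52 on D3, with 30%.

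The remaining members held small shares. On the bright arrays let-7c held 6.84% ± 1.24 and let-7g 5.10% ± 0.691 (SD, n = 3 each). let-7e held 0.418%, 2.67% and 3.53% of the family signal of B1, B2 and B3. Of the 6 detected members, let-7e had the widest relative range across the bright arrays.

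**Figure D2:**
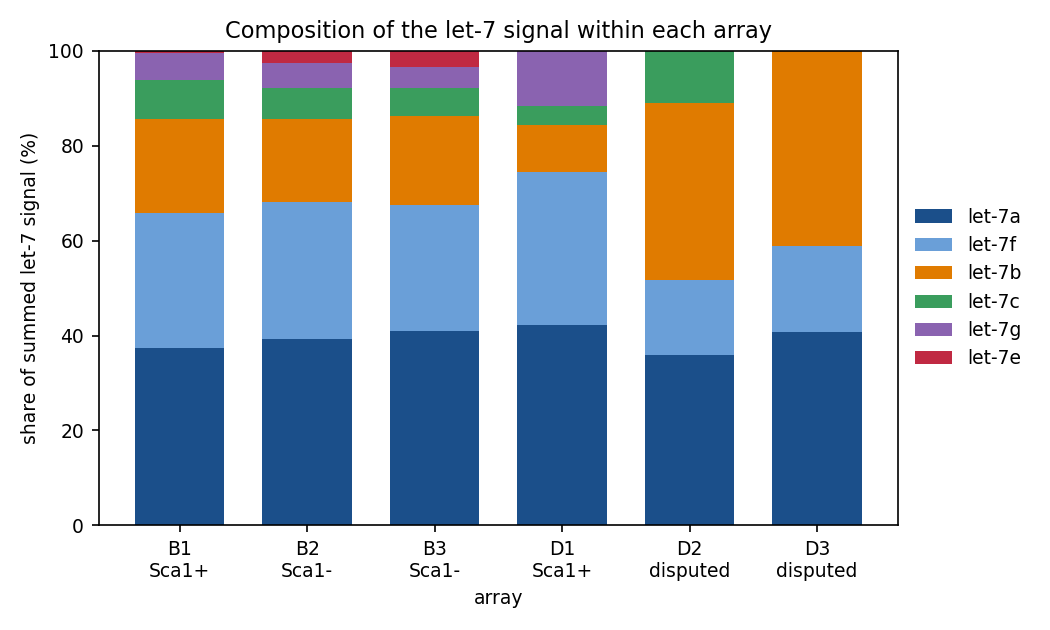
Share of the family's total gene signal held by each let-7 member, in percent, on each of the 6 arrays, with members not detected counted as 0. let-7a stays between 35.9% and 42.2%, while let-7b takes 37.3% on D2 and 41.1% on D3 against 9.92% on D1.

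Ratios of paralogues within an array were then used to look at cross-hybridisation, the reading of one paralogue's RNA by another's probe. Relative to let-7a, let-7f read 76.1%, 73.5% and 65.1% on B1, B2 and B3 and let-7b 53.0%, 44.8% and 45.7%. let-7c read 22.0%, 16.3% and 14.4% and let-7g 15.3%, 13.3% and 10.67% in the same order. miR-98, which differs from let-7a at 2 bases, read 2.15%, 2.36% and 2.21%. The miR-98 ratio spanned 1.097-fold over the bright arrays, the narrowest of the relatives, and the let-7e ratio spanned 7.71-fold.

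Against let-7a, let-7e read 1.12%, 6.80% and 8.62% in the same order of arrays. If let-7a RNA gave the let-7e probes a fixed percent of the let-7a signal, that percent could be at most 1.12%, the value on B1. Then 83.5% of the let-7e signal on B2 and 87.0% on B3 would lie above it. This bound is a ratio of signals and not of molecules. The same bound for let-7b was 44.8% of let-7a and for let-7f 65.1%, so for them most of the signal on every bright array falls under the bound. These data set no lower limit on cross-hybridisation for any pair, and its part in the levels was not tested.

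**Figure D3:**
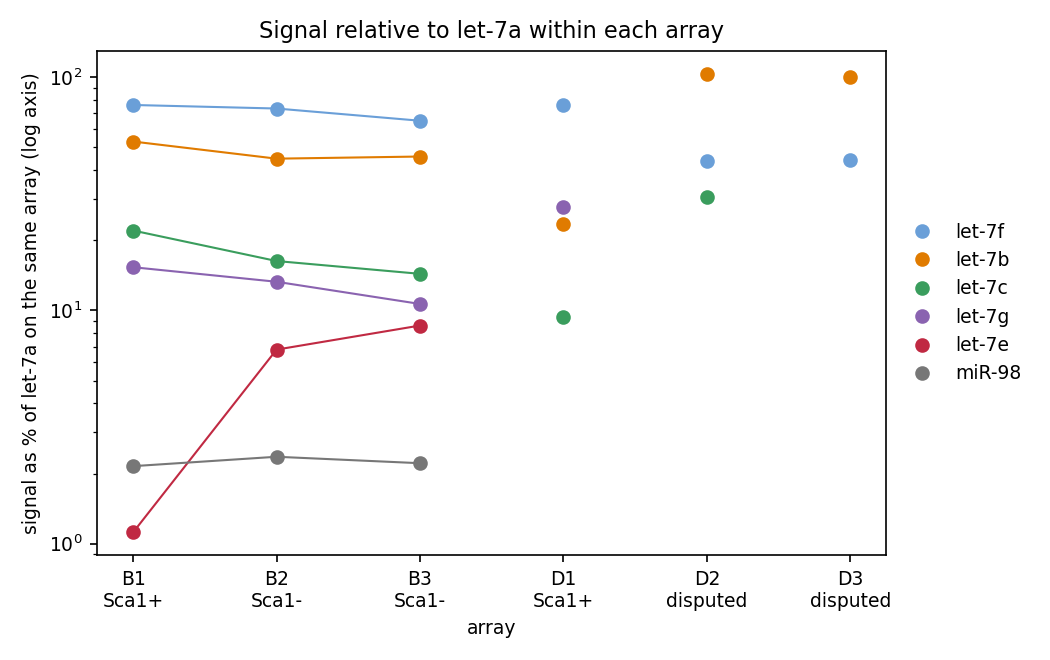
Total gene signal of each let-7 member and of miR-98 as a percent of let-7a on the same array, drawn on a log axis. miR-98 stays between 2.15% and 2.36% on the bright arrays, while let-7e goes from 1.12% on B1 to 8.62% on B3.

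The 2 probes of a member, which differ by 1 base in length, were compared next. The shorter lies within the longer and holds the same bases that differ from let-7a. A like reading by both therefore does not bear on cross-hybridisation. For let-7a the shorter probe read 62.6%, 61.9% and 61.9% of the longer on B1, B2 and B3, and for let-7b 86.0%, 82.8% and 83.4%. For let-7c it read 31.4%, 27.2% and 22.7%, and for let-7f 41.1%, 37.7% and 30.2%, so these ratios were highest on B1 and lowest on B3. For let-7e it read 70.6%, 80.2% and 73.9%. Both let-7e probes showed the difference between arrays. The mean of B2 and B3 was 5.12 times B1 for the shorter probe and 4.73 times for the longer, before scaling.

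Like let-7e, its neighbours on chromosome 1 had their lowest bright-array signal on B1, where neither was detected. miR-99b read 80.3 on B2 and 57.4 on B3. miR-125a, a relative of the lin-4 miRNA of worms, read 31.8 and 17.8. miR-99a and miR-125b map both to chromosome 5, near let-7a, and to chromosome 31, near let-7c. miR-99a read 193, 234 and 199 on B1, B2 and B3, and miR-125b read 1412, 1276 and 1148. On the dim arrays miR-125b read 103 on D1 and 21.3 on D2, and was below detection on D3. The other 3 neighbours were not detected on any dim array. The ratio of miR-99b to let-7e was 39.0% on B2 and 19.6% on B3, so the neighbours did not keep one fixed ratio.

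For the comparison of fractions, signals were put on a log2 scale, scaled per array and fitted with limma, with Benjamini-Hochberg adjustment over all miRNAs tested and a threshold of 0.05. Over all 6 arrays, with the line as a block, 0 of 80 miRNAs passed (0% called), 0 had an unadjusted p under 0.05, and no member passed. The log2 difference, Sca1+ minus Sca1-, was -0.68 (SE 1.66) for let-7a, -0.58 (SE 1.66) for let-7f and -0.85 (SE 1.74) for let-7b. It was -0.61 (SE 1.73) for let-7c, -0.18 (SE 1.65) for let-7g and -2.03 (SE 1.73) for let-7e, and the limma adjusted p was 0.995 for each. The let-7e value, with no dim array detecting it, became -0.73 when floored at the detection limit. It was 0.34 with normexp background correction, which here added an offset of 50 to every signal. All 6 members tested lay below 0, with a median of -0.65. Over all 80 miRNAs 63 lay below 0, with a median of -0.81, so the sign of the members did not set them apart from the rest. let-7j was not tested because it was not detected.

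The 6-array scale rests on 10 probes of 6 miRNAs, 2 of them let-7a and let-7f, and standard errors near 1.7 are too wide to show a difference of several-fold in either direction. Within lines, let-7a was lower in the Sca1+ array by 0.74 in CMT-U27, 0.13 in CMT-U309 and 1.17 in P114 on the log2 scale. let-7b was lower by 2.77 in CMT-U27 and higher by 0.10 in CMT-U309 and by 0.12 in P114. Under the value table's names, the let-7a difference was -1.87 in CMT-U27, 0.07 in CMT-U309 and -0.10 in P114, so its sign in CMT-U309 turned with the naming.

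Among the 4 arrays of undisputed fraction, D1 and B1 against B2 and B3, 0 of 91 miRNAs passed (0% called), and 7 had an unadjusted p under 0.05. let-7e was 1 of these 7, with a log2 difference of -2.11 (SE 0.49) and a limma adjusted p of 0.497. On D1, 1 of the 2 Sca1+ arrays, none of its spots was well above background. The difference became -0.75 when floored at the detection limit and 0.86 with normexp background correction and its offset of 50. With the total gene signal, which holds 0.1 for let-7e on D1 because it was not detected, the difference was -4.73. Neither its size nor its sign is thus fixed by the data. The other members differed by -0.54 to 0.56, with a median over the members tested of -0.19 against -0.18 over all miRNAs. Without B1, D1 alone against B2 and B3 gave 53 calls of 82 tested (64.6% called), with the lone sample assumed to vary like the others. Of the 6 members tested, 3 were called, no larger a share than over all miRNAs. let-7b then fell by 1.62 and let-7c by 1.15. On D1, 60% of spots of the longer let-7b probe and 15.8% of those of the longer let-7c probe were well above background. Over the 4 arrays the let-7c difference was -0.18, and 0.087 when floored at the detection limit. No floor was applied in the fit without B1, so the part of background in the let-7c fall was not tested. The third, let-7e, had only a background value on D1 and entered the test through B2 and B3, so its call is no support. Without D1 there were 4 calls and no member passed. D1 is also the dim array of the set, and the part of its brightness in these differences was not tested.

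Among the bright arrays, B1 (Sca1+) against B2 and B3 (Sca1-), 4 of 90 miRNAs passed (4.44% called), all lower on B1, and 0 of the 6 members tested were among them. let-7e had a mean scaled level 5.83-fold lower on B1, a log2 difference of -2.54 (SE 0.51), with an unadjusted limma p of 0.0121 and an adjusted p of 0.0905. It was 1 of 23 miRNAs with an unadjusted p under 0.05. The other 5 members lay above 0, from 0.18 (SE 0.36) for let-7a, 0.25 (SE 0.34) for let-7f and 0.39 (SE 0.37) for let-7b to 0.52 (SE 0.29) for let-7g and 0.64 (SE 0.33) for let-7c, and none passed. The members' median was 0.32 and that of all 90 miRNAs 0.18. The let-7e call depended on the processing. With the 75th percentile taken over all probes, the log2 difference was -3.00 with a limma adjusted p of 0.00158, and among miRNAs detected on all 3 arrays it was -2.54 with an adjusted p of 0.0116. With normexp background correction, which here added an offset of 50 to every signal, it was -0.15. The longer let-7e probe read 21.9 on B1, 84.9 on B2 and 123 on B3, and such an offset narrows log2 differences between signals that low. How much of the change came from the offset was not tested.

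Of the neighbours of let-7e, miR-99b was 1 of the 4 that passed. It was not well above background on B1, so its fit used a background value there. As a bound, which was not itself tested, it was at least 3.16-fold lower on B1. miR-125a, also not detected on B1, was at least 1.69-fold lower by the same kind of bound. Both entered the test only through B2 and B3, where they are high, so their fits do not add support to the let-7e difference. The neighbours of let-7a and let-7c did not pass, with log2 differences of -0.53 for miR-99a and -0.14 for miR-125b, and miR-98 differed by 0.09. The Sca1+ side of this comparison is 1 array, the same that held 5 of 7 epithelial and 3 of 5 leukocyte miRNAs. Whether the source of those miRNAs, or that library, had a part in the let-7e difference was not tested. By the file record B2 is the same line as B1, and by the value table B3 is, so line and fraction are not balanced in it.

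**Figure D4:**
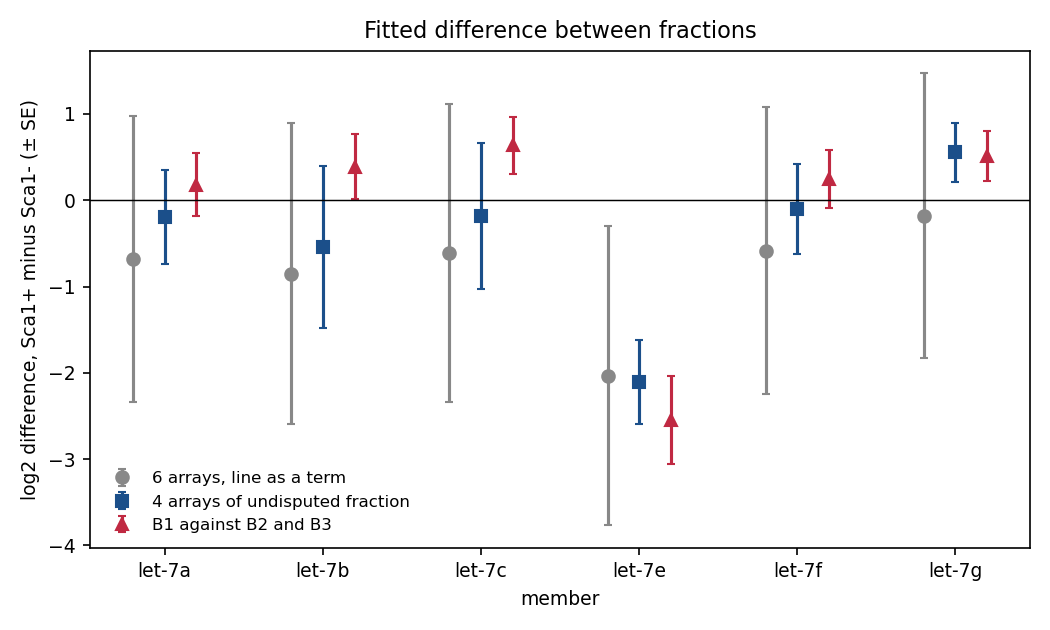
Log2 difference (Sca1+ minus Sca1-) with its standard error for the 6 let-7 members tested, over 6 arrays, over the 4 arrays of undisputed fraction and over the 3 bright arrays. let-7e is the lowest in each, at -2.03, -2.11 and -2.54. The first pair rests on arrays where it was not detected and becomes -0.73 and -0.75 once signals are floored at the detection limit. With normexp background correction and its offset of 50, that pair was 0.34 and 0.86. No member passed the adjusted threshold in any.

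The log2 ratio of each member to the median of the members on the same array needs no scaling between arrays. Over 6 arrays, the median was over let-7a, let-7b and let-7f. It was the value of let-7f on B1, B2, B3 and D1, and of let-7b on D2 and D3. The differences in CMT-U27 and P114 thus mix reference members and are not differences against 1 fixed member. On this measure let-7a lay lower in Sca1+ in 3 of 3 lines, with a mean difference of -0.12 and an exact two-sided permutation p of 0.25, the smallest that 3 pairs allow. Under the value table's names it lay lower in 2 of 3 lines, with a mean difference of -0.0042, and with normexp also in 2 of 3, with a mean of -0.09. let-7b (-0.29) and let-7f (-0.03) lay lower in 1 of 3 lines. Among the 4 arrays of undisputed fraction, where the median is over 5 members, the difference was 0.14 for let-7a, -0.21 for let-7b, 0.15 for let-7c, 0.23 for let-7f and 0.89 for let-7g. That median was the value of let-7b on the bright arrays and of let-7g on D1, so these differences also mix reference members. The smallest exact permutation p that 2 arrays against 2 allow is 0.333, so no member could pass. Among the bright arrays the let-7e ratio was -5.07 on B1, -2.24 on B2 and -1.79 on B3. That is a difference of -3.06, with an SD of 0.32 between B2 and B3, and the smallest p that 1 array against 2 allows is 0.333. With normexp and its offset of 50, the same difference was -0.40.

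No member passed the limma test among the lines. With 2 arrays per line, 0 of 80 miRNAs passed (0% called), 4 had an unadjusted p under 0.05, and adjusted p for the members ran from 0.901 to 0.927. The mean scaled log2 level of let-7a was -1.16 ± 0.52 in CMT-U27, 0.27 ± 0.09 in CMT-U309 and -0.28 ± 0.83 in P114 (SD, n = 2 each). That of let-7b was -2.38 ± 1.96, -0.96 ± 0.07 and -0.94 ± 0.09 in the same order. CMT-U309 holds bright arrays only and CMT-U27 dim arrays only by the file record, so line and brightness cannot be told apart there. Under the value table's names 14 of 80 miRNAs passed (17.5% called) and no member did. There P114 holds bright arrays only and CMT-U309 dim arrays only, so line and brightness cannot be told apart in these calls either.

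Finally, the miRNAs outside the family with the most similar pattern were found by the root mean square difference of log2 signals after each was centred, which describes these arrays and is no test. Over 6 arrays, among 6 candidates, miR-23a (0.64) was nearest to let-7a, against 0.35 for let-7f and 0.74 for let-7b. Over the 3 bright arrays, among 72 candidates, miR-301a (0.034), miR-30b (0.051) and miR-30d (0.055) were nearest to let-7a, each nearer than any member. let-7f lay 0.10 from let-7a, let-7b 0.11, let-7g 0.22 and let-7c 0.26. let-7e lay 1.32 from let-7a, and its nearest miRNAs were miR-221 (0.30), miR-222 (0.60) and miR-34a (0.63). With 3 arrays, many miRNAs share a pattern.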

How the data were processed

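miRNA levels were measured on 6 one-colour Agilent arrays, 1 per sorted fraction and line. The scanner files hold background-subtracted spot intensity and a total gene signal per miRNA, made by the authors with Agilent Feature Extraction. Per the file headers its version was 10.10.1.1, whereas the submitters' processing notes name 10.7.3.1. The labels name the dye Cy5, while the files hold 1 green channel. The deposited value table holds the total gene signal as intensity, with 0.1 for miRNAs that were not detected, and its 311 features matched 1 scanner file per column within a relative tolerance of 0.0001. Its scale is linear and uncentred, and which of the sample names is right stays unknown.

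Control spots and outlier-flagged spots were left out. The processed signal, with values at or below 0 set to the array's lowest positive value, was put on a log2 scale and scaled by the 75th percentile over probes well above background on all arrays of the fit (10 probes for 6 arrays, 122 for the bright arrays). A miRNA took its brightest probe. It was tested if detected on at least 3 of 6 arrays, or on 2 in smaller sets. Fits used limma 3.58.1 in R 4.3.3 with the line as a block over 6 arrays and no block elsewhere, after the test was tested on simulated data. Bounds for miRNAs not well above background use the lowest signal among probes well above background on each array. All arrays share 1 slide and scan, and slide row was tried as a block. The depth of an array has no count, so the number of arrays limits the precision. RefSeq gene names came from assembly UU_Cfam_GSD_1.0, used only for names and for which genes overlap. Mature miRNA sequences were not used here.

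The replicate numbers follow the cell line, so the line is the pairing of the 6-array fit. The members and lists were chosen with earlier results of these data known. Members are named in full; of other miRNAs, the text names genes of the let-7 clusters, miR-98, the marker lists and the 3 most similar to a member.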

Additional observations from a re-analysis of the deposited data

Results flagged for a closer look

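The log2 ratio of let-7b to the median of let-7a, let-7b and let-7f on the same array moved in opposite directions between lines: Sca1+ minus Sca1- was -2.09 in CMT-U27, 0.21 in CMT-U309 and 1.00 in P114. The let-7f ratio was 0.42 higher in Sca1+ of CMT-U27 and differed by -0.50 in P114. Each line has 1 array per fraction, and the difference between lines was not tested. The let-7b ratio was -0.92 to -1.13 on the bright arrays, -2.09 on D1 and 0 on D2 and D3, so the dim arrays lay apart from the bright ones on both sides. The value of 0 arises because let-7b was itself the median on D2 and D3. On the other arrays let-7f was the median, so the differences in CMT-U27 and P114 mix reference members. The value table and the file record name the fraction of D2 and D3 differently, and that of D1 alike.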

How the results depend on the processing

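Here normexp means normexp background correction with an offset of 50, which narrows log2 differences between low signals. Over 6 arrays, 0 miRNAs passed under every alternative run, including no replicate block (0 calls), slide row as a block and the value table's names. Of the members, let-7c (0.19), let-7e (0.34) and let-7g (0.43) turned sign with normexp, and let-7g also with scaling over all probes (0.26), quantile scaling (0.14), a floor at the detection limit (0.14), the mean of all probes (0.16) and the total gene signal (0.26). Leaving out each array in turn gave -0.95 to -0.35 for let-7a, -0.82 to -0.10 for let-7f, -1.34 to 0.11 for let-7b, -1.06 to 0.27 for let-7c and -0.30 to 0.087 for let-7g. For let-7e it gave -2.93 to -1.36, from leaving out a dim array only. Without B1, B2 or B3, the arrays that detected it, let-7e was not tested. Among arrays of undisputed fraction the count of 0 became 56 with normexp and 2 with quantile scaling, and 0 to 53 when each array was left out. Member values turned with normexp (let-7b 0.12, let-7c 0.65, let-7e 0.86), with scaling over all probes (let-7a 0.067, let-7c 0.081, let-7f 0.16), with no scaling (let-7g -1.32), with the floor (let-7c 0.087), with the mean of probes (let-7f 0.0050) and with the total gene signal (let-7f 0.10). Leaving out each array gave -0.71 to 0.18 for let-7a, -1.62 to 0.39 for let-7b, -1.15 to 0.64 for let-7c and -0.59 to 0.25 for let-7f. Among bright arrays the count of 4 became 54 with normexp, 11 with scaling over all probes, 10 with the floor, 8 among miRNAs detected on all arrays, 2 with the mean of probes, 0 with quantile scaling and 0 with no filter. let-7a (-0.17) and let-7f (-0.093) turned with normexp, let-7a (-0.28), let-7b (-0.068) and let-7f (-0.21) with scaling over all probes, and let-7a (-0.049) with the total gene signal. Leaving out an array there could not be fitted. The count among lines was 14 under the value table's names and 0 to 7 when each array was left out. Of the ratio values to the member median 11 moved by more than the spread and 34 did not, and of the shares 7 moved and 2 did not. The cause of these changes was not tested. let-7e stayed below 0 under every alternative run on the bright arrays. Members not detected on the dim arrays have only a bound there.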
